A study of Mus musculus with 12 samples.

Results

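The genes described here encode citrate synthase (Cs), the 3 subunits of the NAD-dependent isocitrate dehydrogenase (Idh3a, Idh3b and Idh3g), the mitochondrial NADP-dependent isocitrate dehydrogenase (Idh2), fumarate hydratase (Fh1), the cytosolic and mitochondrial malate dehydrogenases (Mdh1 and Mdh2) and the mitochondrial transhydrogenase (Nnt). They were chosen by name as the enzymes of the tricarboxylic acid (TCA) cycle outside the pyruvate, oxoglutarate and succinate steps, together with both malate dehydrogenases and Nnt, and they make up 9 of the 54751 features in the deposited table. Each was matched by its symbol, and where several features carried a symbol the one with the highest mean was used. Nnt is the 1 member with more than one such feature, and its second feature (ENSMUSG00000116207.1) is listed at 0 in all 6 libraries.

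The values come from total RNA of hearts of mice aged 52 weeks and labelled C57BL/6N, with 3 libraries in each of 2 groups. The knockout-labelled hearts carry Rexo2 alleles flanked by loxP sites and, in addition, a heterozygous allele written +/Ckmm. The control hearts carry the same floxed Rexo2 alleles (Rexo2loxP/loxP) without Ckmm. Ckmm is the name of muscle creatine kinase, whose promoter is a common driver of Cre recombinase in striated muscle, and the design cannot tell an effect of that allele apart from an effect of losing Rexo2, the gene of an oligoribonuclease that degrades very short RNAs in mitochondria and the cytosol. Whole hearts also hold cells in which a muscle promoter is not active. The labels tie no library to a particular animal, and p-values therefore reflect the spread among these libraries, some of which may be technical. Libraries are called by group and by the number in their column name.

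In the TCA cycle, citrate synthase joins acetyl-CoA to oxaloacetate, and isocitrate dehydrogenase then releases the first carbon dioxide and makes NADH. The NAD-dependent enzyme is built of a catalytic alpha subunit with beta and gamma partners, whereas Idh2 catalyses the same oxidation with NADP and supplies mitochondrial NADPH. Fumarate hydratase makes malate, and mitochondrial malate dehydrogenase closes the cycle. The cytosolic malate dehydrogenase works in the malate-aspartate shuttle, which carries reducing equivalents into mitochondria. The transhydrogenase uses the proton gradient to turn NADH into NADPH, which mitochondrial peroxide defence consumes.

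Depth lay between 41979163 and 50764023 reads per library, recovered from the deposited values. Of these reads, 71.5%, 71.9% and 71.5% fell on features of mitochondrial DNA (mtDNA) in knockout 492, 499 and 501. The share was 69.4%, 70.0% and 69.5% in control 490, 498 and 502, so it was higher in each knockout-labelled library. The members are nuclear genes, and only the remaining reads serve them and the other nuclear genes. Rexo2 itself held 273.7, 287.8 and 313.6 normalised counts in knockout 492, 499 and 501, against 329.7, 367.6 and 293.1 in control 490, 498 and 502, so the groups overlapped. The count covers the whole gene and the deleted part is not given in the labels used here, so it does not check the genotype, and knockout refers to the label throughout. Control 490 stood apart from the rest on principal component 1 (26.4% of the variance), at -30.1, with the other libraries between -5.63 and 16.7. Cardiomyocyte markers were abundant, with all 8 found and a summed level between 1819310 and 1929110 normalised counts in knockout-labelled hearts and between 1863830 and 1993450 in control hearts.

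The promoters of 7 of the 9 members are in the RefSeq promoter table of GRCm38.p6. Those of Idh3a and Nnt are not, and they were not searched. Each window in it spans 250 bases before to 50 after the annotated start. Idh3b and Idh3g are shown as the partner subunits of a single enzyme whose windows share the letters CCGGAAG, the core recognised by ETS-family factors. Cs is shown as the enzyme of the entry step, with the letters GGGCGG, known as the GC box. Capitals mark these letters or their reverse complement. Idh3b lies on the minus strand with its window at chr2:130284402-130284701, Idh3g on the minus strand at chrX:73786848-73787147, and Cs on the plus strand at chr10:128337477-128337776. Each sequence reads 5′ to 3′ along its gene.
Idh3b: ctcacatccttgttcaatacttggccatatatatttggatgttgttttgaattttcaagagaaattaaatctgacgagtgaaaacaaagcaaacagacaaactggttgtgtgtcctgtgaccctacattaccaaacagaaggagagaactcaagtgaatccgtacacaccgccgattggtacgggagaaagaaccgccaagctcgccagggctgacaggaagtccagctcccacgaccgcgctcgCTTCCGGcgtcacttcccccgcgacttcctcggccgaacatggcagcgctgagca
Idh3g: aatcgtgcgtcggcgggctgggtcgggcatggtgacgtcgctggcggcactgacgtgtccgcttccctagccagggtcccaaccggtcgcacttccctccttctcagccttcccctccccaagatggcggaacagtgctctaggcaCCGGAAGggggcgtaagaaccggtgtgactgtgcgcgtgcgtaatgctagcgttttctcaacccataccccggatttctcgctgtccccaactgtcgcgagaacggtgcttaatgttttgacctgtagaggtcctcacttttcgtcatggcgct
Cs: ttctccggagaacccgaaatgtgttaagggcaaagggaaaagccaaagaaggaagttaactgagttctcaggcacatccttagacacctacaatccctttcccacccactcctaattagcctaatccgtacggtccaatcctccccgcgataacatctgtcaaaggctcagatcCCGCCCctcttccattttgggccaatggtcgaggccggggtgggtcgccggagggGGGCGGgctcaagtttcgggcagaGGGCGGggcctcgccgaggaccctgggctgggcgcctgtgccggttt

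Searched on both strands, CCGGAAG was found in 2 of the 7 member windows, Idh3b and Idh3g, and in 8.86% of the 32851 promoter windows in the table. It began 5 bases before the start in Idh3b and 104 bases before it in Idh3g. The letters GGGCGG were found in 5 of the 7, namely Cs, Idh2, Fh1, Mdh1 and Mdh2, and in 35.7% of all windows. The letters TCAAGGTCA, recognised by estrogen-related receptors, were in 0 of the 7 and in 0.423% of all windows. These letters do not overlap each other in the windows shown, and a match describes the window only. The member windows held between 50.3% and 68.3% G and C, where the median of all windows was 52.7%.

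Across genotype, 8 of the 9 members differed by less than 4% between group means, and the libraries of the 2 groups overlapped for each of those 8. Nnt was the 1 member whose groups did not overlap, with its mean in knockout-labelled hearts at -12.8% relative to control hearts. No member passed limma's test at a Benjamini-Hochberg adjusted p under 0.05, and in that fit 0.0219% of the 18250 tested features did so, 4 in all. edgeR and DESeq2 on the recovered reads called 0 of the 9 as well, where they called 0.0274% and 0.437% of the features to which they gave an adjusted p. All 9 members passed the filter on low values, which asked for 10 normalised counts on average. Their median log2 fold change was -0.0041, against 0.00056 over all tested features, with 3 members above 0 and 6 below, where 49.8% of all tested features lay below 0. Without control 490, the library that stood apart, the members' log2 fold changes ran from -0.20 (Nnt) to 0.059 (Idh3b) and again none was called, while Idh2 and Fh1 turned to 0.022 and 0.052. The 1 non-overlapping member compares with 9.51% of all tested features whose groups did not overlap.

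**Figure D1:**
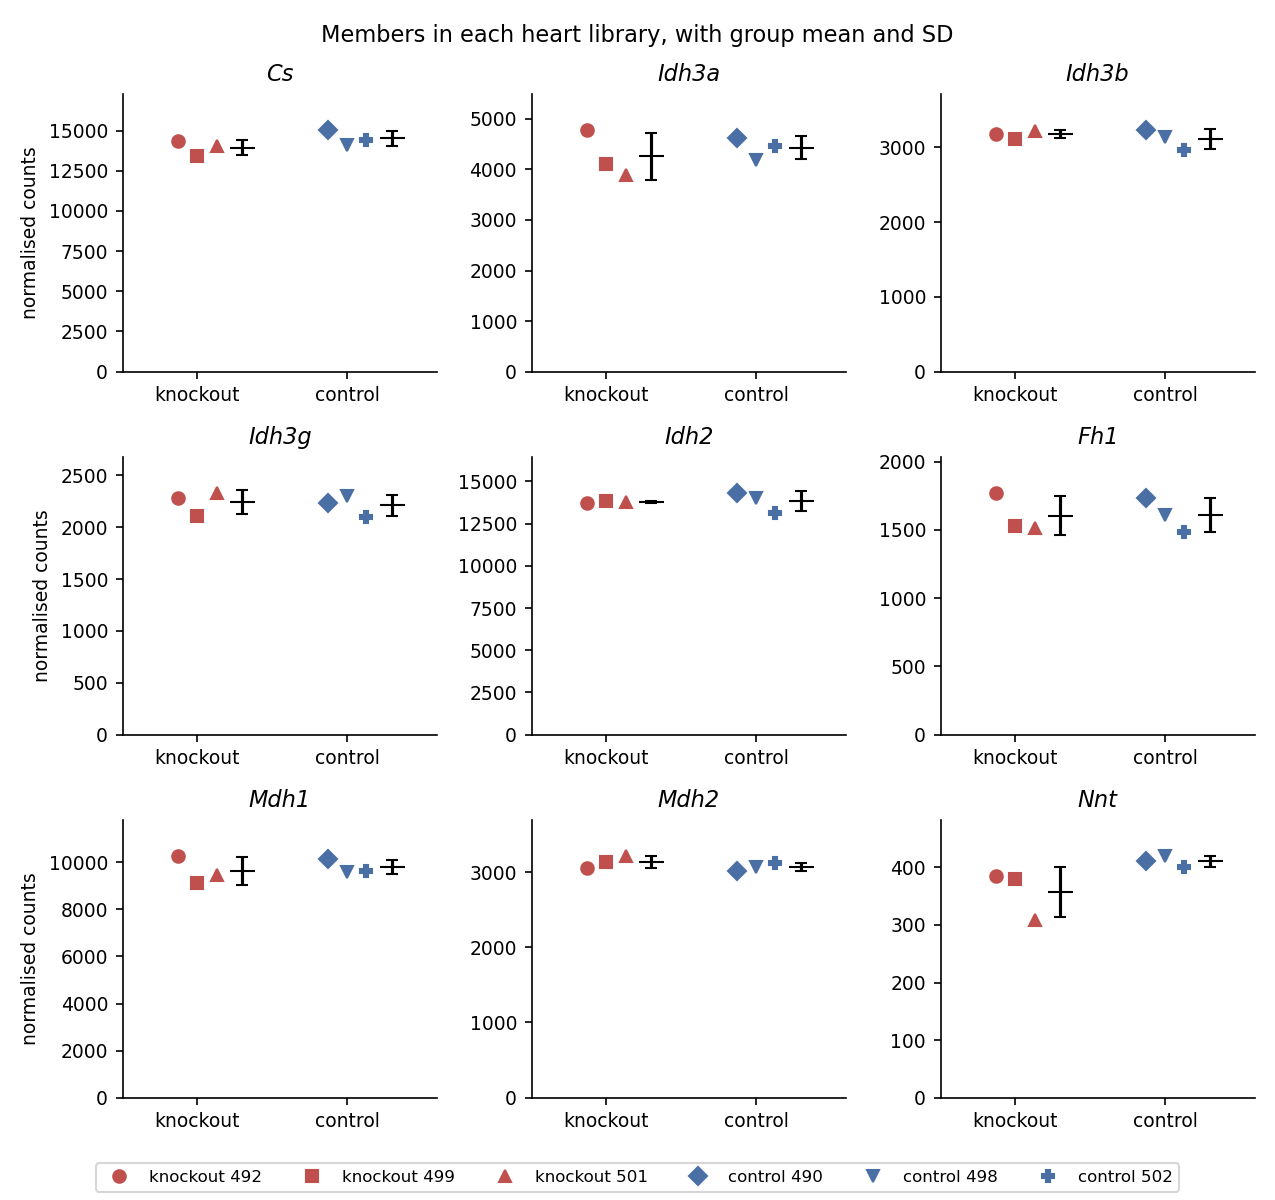
Normalised counts (vertical axis, from 0) of each of the 9 members in the 3 knockout-labelled and 3 control libraries, with black bars for the group mean and SD and a marker shape for each library. The groups overlap in 8 panels, while the Nnt panel has its knockout-labelled libraries between 308 and 385.3 and its control libraries between 399.9 and 420.2.

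The RNA of citrate synthase, the condensing enzyme often used as a marker of mitochondrial content, was measured at similar levels in both groups. Mitochondrial content itself was not tested. Cs (ENSMUSG00000005683.8, chromosome 10, 128337727 to 128362482) held 14348, 13444 and 14047 normalised counts in knockout 492, 499 and 501, against 15052, 14086 and 14394 in control 490, 498 and 502. Knockout 499 was the lowest and control 490 the highest, and knockout 492 lay inside the control range. The means were 13946 ± 461 in knockout-labelled and 14511 ± 493 in control hearts (SD, n = 3 each). The log2 fold change was -0.057 (SE 0.045, limma adjusted p = 1.00). The 95% interval ran from -0.15 to 0.040, or from -10.2% to 2.84% in relative terms.

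Reads of citrate synthase may be divided between 2 features. Csl (ENSMUSG00000046934.5, chromosome 10, 99757705 to 99759658), whose name is short for citrate synthase like and which was named after its values were seen, held 4873, 4911 and 5198 normalised counts in knockout 492, 499 and 501, against 5342, 4957 and 5081 in control 490, 498 and 502. It held between 25.4% and 27.0% of the summed Cs and Csl counts in knockout-labelled libraries, and between 26.0% and 26.2% in control libraries. The sources used here do not say how reads that match both sequences were assigned, and the count of each is therefore uncertain. With both summed, the means were 18941 ± 508 in knockout-labelled and 19638 ± 690 in control hearts (SD, n = 3 each), a log2 fold change of -0.052 (95% interval -0.15 to 0.044, limma adjusted p = 1.00).

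The catalytic subunit of NAD-dependent isocitrate dehydrogenase varied more between libraries than its partners did. Idh3a (ENSMUSG00000032279.11, chromosome 9, 54586511 to 54604662) held 4783, 4099 and 3886 normalised counts in knockout 492, 499 and 501, against 4630, 4194 and 4471 in control 490, 498 and 502. The knockout-labelled libraries held both the highest and the lowest value, and their SD of 469 was larger than the control SD of 221. Its log2 fold change was -0.063 (SE 0.069, 95% interval -0.21 to 0.085, limma adjusted p = 1.00). It was -0.15 without knockout 492, where limma gave an unadjusted p of 0.0195 and an adjusted p of 0.961, and -0.00010 without knockout 501.

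Idh3b (ENSMUSG00000027406.12, chromosome 2, 130279309 to 130284451), the beta subunit, held 3184, 3114 and 3222 normalised counts in knockout 492, 499 and 501, against 3235, 3134 and 2961 in control 490, 498 and 502. Idh3g (ENSMUSG00000002010.17, chromosome X, 73778963 to 73786897), the gamma subunit, held 2285, 2110 and 2332 in knockout 492, 499 and 501, against 2235, 2300 and 2102 in control 490, 498 and 502. For both genes the lowest library was control 502, and the knockout-labelled values lay within or close to the control range. The log2 fold changes were 0.030 for Idh3b (95% interval -0.077 to 0.14) and 0.019 for Idh3g (-0.10 to 0.14).

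A ratio of 2 members within a library does not depend on how libraries are scaled, although its size depends on gene length and only its differences between libraries are read here. Idh3b over Idh3g was 1.39, 1.48 and 1.38 in knockout 492, 499 and 501, against 1.45, 1.36 and 1.41 in control 490, 498 and 502. The mean ratio was 1.42 ± 0.051 in knockout-labelled and 1.41 ± 0.043 in control hearts (SD, n = 3 each), a ratio chosen after its values were seen and given without a test. It was not the steadiest ratio, since Idh2 over Idh3b, also chosen afterwards, was 4.31, 4.45 and 4.28 in knockout 492, 499 and 501, against 4.43, 4.47 and 4.44 in control 490, 498 and 502. Idh3a over Idh3b spread more widely, at 1.502, 1.32 and 1.21 in knockout 492, 499 and 501, against 1.43, 1.34 and 1.51 in control 490, 498 and 502. Its log2 difference was -0.093 (exact permutation test, 2-sided, p = 0.4, where 3 libraries against 3 cannot go below 0.1), or p = 0.7 adjusted over the 4 ratios tested. Idh3a over Idh3g differed by -0.082 on the log2 scale (exact permutation p = 0.6, adjusted 0.7), and leaving out knockout 501 turned that difference to 0.0096.

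Idh2, the NADP-dependent enzyme, was the steadiest member in knockout-labelled hearts. Idh2 (ENSMUSG00000030541.16, chromosome 7, 80094845 to 80118608) held 13713, 13846 and 13781 normalised counts in knockout 492, 499 and 501, against 14325, 14006 and 13148 in control 490, 498 and 502. All knockout-labelled values lay inside the control range, with an SD of 66.7 against 609 in control hearts. The log2 fold change was -0.0039 (95% interval -0.10 to 0.093). Idh2 over Idh3a, the NADP form against the catalytic subunit of the NAD form, was 2.87, 3.38 and 3.55 in knockout 492, 499 and 501, against 3.09, 3.34 and 2.94 in control 490, 498 and 502. The groups overlapped, and the log2 difference of 0.059 (exact permutation p = 0.7, adjusted 0.7) became -0.0039 without knockout 501.

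**Figure D2:**
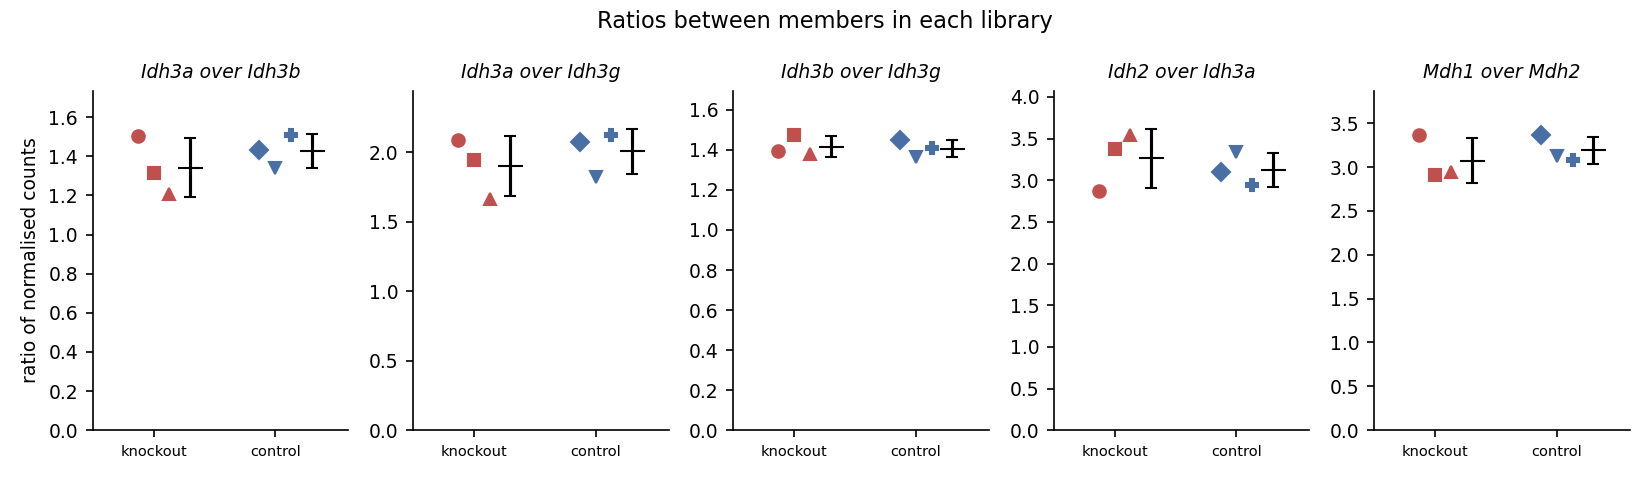
Ratios of normalised counts (vertical axis, from 0) of Idh3a over Idh3b, Idh3a over Idh3g, Idh3b over Idh3g, Idh2 over Idh3a and Mdh1 over Mdh2 in each library, with group mean and SD in black. In knockout-labelled libraries circles, squares and triangles stand for 492, 499 and 501, and in control libraries diamonds, downward triangles and crosses stand for 490, 498 and 502. The groups overlap in every panel, and Idh3b over Idh3g ranges from 1.36 to 1.48.

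Fumarate hydratase, encoded by Fh1 (ENSMUSG00000026526.14, chromosome 1, 175601378 to 175625635), held 1771, 1526 and 1516 normalised counts in knockout 492, 499 and 501, against 1735, 1606 and 1484 in control 490, 498 and 502. The highest and lowest libraries of the 2 groups nearly coincided. The log2 fold change was -0.0041 (SE 0.073, 95% interval -0.16 to 0.15), so changes of up to about 11% in either direction lay within it (-10.6% to 11.2%).

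Cytosolic malate dehydrogenase, encoded by Mdh1 (ENSMUSG00000020321.15, chromosome 11, 21556692 to 21571934), held 10279, 9118 and 9458 normalised counts in knockout 492, 499 and 501, against 10157, 9609 and 9631 in control 490, 498 and 502. The knockout-labelled group held both the highest and the lowest library. Its log2 fold change was -0.028 (95% interval -0.14 to 0.082). Mdh1b, named as a further malate dehydrogenase and outside the members, is listed at 0 in all libraries.

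Mitochondrial malate dehydrogenase, encoded by Mdh2 (ENSMUSG00000019179.10, chromosome 5, 135778649 to 135790386), held 3053, 3137 and 3217 normalised counts in knockout 492, 499 and 501, against 3017, 3074 and 3124 in control 490, 498 and 502. It had the lowest coefficient of variation of the members over all 6 libraries, 2.29%, where Nnt had the highest at 10.5% and the median of all tested features was 10.3%. The log2 fold change was 0.029 (95% interval -0.072 to 0.13). Mdh1 over Mdh2 was 3.37, 2.91 and 2.94 in knockout 492, 499 and 501, against 3.37, 3.13 and 3.08 in control 490, 498 and 502. The groups overlapped, with a log2 difference of -0.058 (exact permutation p = 0.6, adjusted 0.7).

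Nnt (ENSMUSG00000025453.18, chromosome 13, 119335527 to 119409257) was the member that differed most between the groups. It held 385.3, 379.7 and 308.0 normalised counts in knockout 492, 499 and 501, against 411.0, 420.2 and 399.9 in control 490, 498 and 502. All 3 knockout-labelled libraries were below all 3 control libraries, and knockout 501 lay well below the other two. The means were 358 ± 43.1 in knockout-labelled and 410 ± 10.2 in control hearts (SD, n = 3 each). The log2 fold change was -0.20 (SE 0.094, 95% interval -0.41 to -0.0028). The limma p was 0.0473 before adjustment, a level that 3.7% of all tested features reached, and 1.00 after adjustment, so the difference did not pass. The exact permutation p was 0.1, the smallest possible. Without knockout 501 the log2 fold change was -0.10, with a limma p of 0.259 before adjustment.

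Nnt differs between substrains of C57BL/6, since C57BL/6J carries a deletion of several of its exons that C57BL/6N lacks. The annotation used here is of GRCm38, an assembly of C57BL/6J, while the hearts are labelled C57BL/6N. The submitters' processing notes also name mm10 and GRCm38, without their roles. Reads from exons that the assembly lacks could not be counted there, and a count per gene does not show which Nnt allele a heart carries, so the substrain of the hearts was not tested.

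Among the 3862 annotated protein-coding features with a mean of at least 500, those whose log2 values over the 6 libraries followed Nnt most closely were Mycbp2 (Pearson r = 0.990), Capza2 (0.982), Zfp91 (0.975), Phtf2 (0.972) and Akt2 (0.957). In Mycbp2 the counts were 1720, 1707 and 1592 in knockout 492, 499 and 501, against 1787, 1801 and 1756 in control 490, 498 and 502, with the same low value in knockout 501. For Cs they were Anks1 (0.990), Ttn (0.987), Cops8 (0.987), Crip2 (0.985) and Rnf11 (0.982). Ttn, the gene of the giant sarcomere protein titin, held 1347979, 1281527 and 1314483 counts in knockout 492, 499 and 501, against 1399976, 1320528 and 1338333 in control 490, 498 and 502. These are the highest of many correlations over 6 libraries, which share their scaling across genes, and are given as a description.

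The members did not vary alike between libraries. Over the 6 libraries, Pearson's r between log2 values was 0.86 for Fh1 with Mdh1, 0.85 for Idh3a with Mdh1, 0.83 for Cs with Mdh1, 0.82 for Idh3b with Idh2 and 0.74 for Idh3b with Idh3g. Mdh2 ran the other way, at -0.83 with Idh3a, -0.83 with Nnt and -0.81 with Fh1, although its coefficient of variation was only 2.29%. These are the highest and lowest r among all pairs of the 9 members. The 6 libraries share their scaling across genes, and the values are given as a description with no p. The members' summed level was 53801, 50773 and 51769 normalised counts in knockout 492, 499 and 501, against 54798, 52429 and 51715 in control 490, 498 and 502, so that knockout 492 and control 490 were the 2 highest.

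These same 2 libraries also had the highest summed level of cardiomyocyte markers, at 1929110 in knockout 492 and 1993450 in control 490, most of it from Ttn. Over the 6 libraries the members' sum had a Pearson's r of 0.94 with the cardiomyocyte marker sum, and of -0.97 with the sum of the 6 macrophage markers. Spearman's rho was 0.83 and -1.0 in the same order. Most of the members' sum came from Cs, Idh2 and Mdh1. Macrophage markers summed to 2631, 3061 and 2806 normalised counts in knockout 492, 499 and 501, against 2391, 2762 and 2834 in control 490, 498 and 502, and the sums of the groups overlapped. Lyz2 was the largest part, with 1311 in knockout 492 and 1086 in control 490. Not every marker followed the sum, since Cd163 held 201.8 in knockout 492 and 295.8 in control 490. Adgre1 did not overlap, at 132.0, 116.5 and 106.0 in knockout 492, 499 and 501, against 86.7, 96.8 and 92.6 in control 490, 498 and 502. limma did not call it. The other lists had r between -0.61 for endothelial cells and 0.48 for smooth muscle cells and pericytes. By member, r with the cardiomyocyte marker sum was 0.96 for Cs, 0.90 for Mdh1, 0.79 for Idh3a and 0.75 for Fh1, between 0.19 and 0.37 for Idh3g, Idh3b, Idh2 and Nnt, and -0.73 for Mdh2. All these values share libraries and scaling, and the part of cell composition in the members' levels was not tested. In such bulk samples fewer cells of a type and less RNA per cell cannot be told apart.

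**Figure D3:**
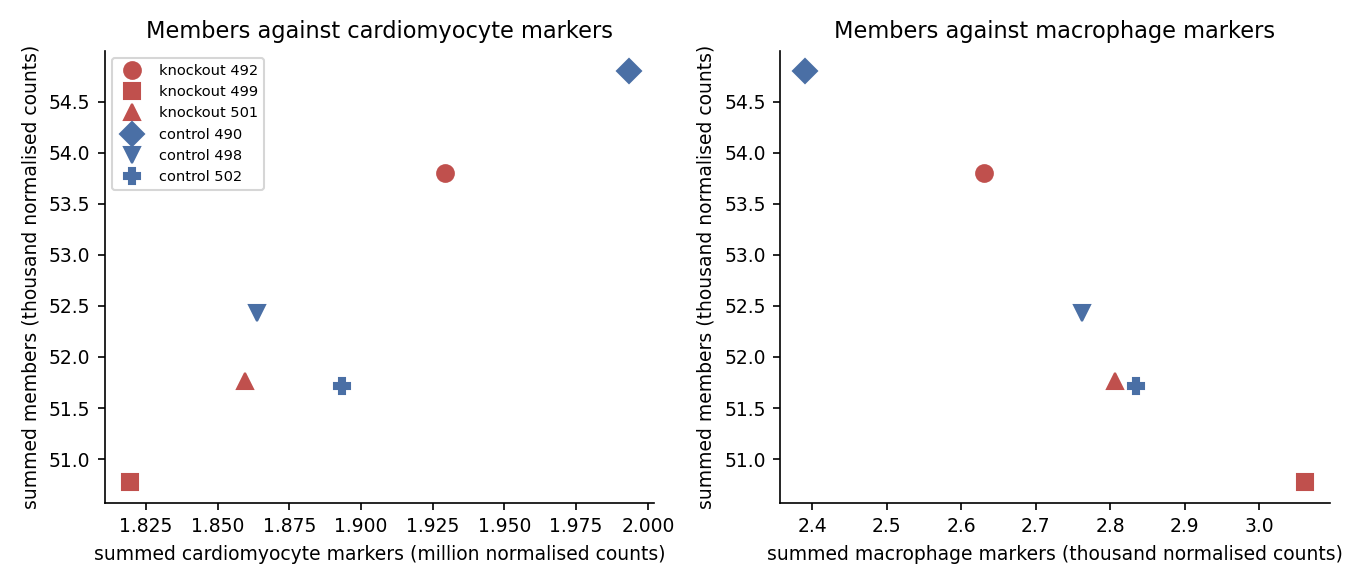
Summed normalised counts of the 9 members (vertical axes, not from 0) against summed cardiomyocyte markers (left) and summed macrophage markers (right), in the multiples written on each axis, 1 point per library. Knockout 492 and control 490 are highest in members and cardiomyocyte markers and lowest in macrophage markers, and knockout 499, with 50773 for the members, is at the opposite end of both panels.

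Of the marker lists, the groups did not overlap in the summed level of the 6 genes listed for skeletal muscle. This sum was 18209, 18273 and 19476 normalised counts in knockout 492, 499 and 501, against 15698, 17051 and 16950 in control 490, 498 and 502. Nearly all of it came from Ckm and Acta1, which heart muscle also expresses. Ckm overlapped between the groups and Acta1 did not, with 4433, 4993 and 5755 normalised counts in knockout 492, 499 and 501, against 2186, 3715 and 4183 in control 490, 498 and 502 (limma adjusted p = 0.744). The myosin gene Myh4 was at 0 in all libraries, and Myh1 and Myh2 did not exceed 3.8 counts in any library. Of the adipocyte markers, Lep was at 0 in all libraries, Adipoq at up to 1.0 and Plin1 at up to 4.5. Fabp4, on the same list, held between 2340 and 2921 normalised counts in knockout-labelled and between 2277 and 2627 in control libraries. It made up nearly all of that list's sum, and the groups overlapped.

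The other steps of the cycle give the setting for these members. The 15 further genes of the TCA cycle and pyruvate dehydrogenase, all tested, had a median log2 fold change of -0.0033. Of them limma called 1 lower and 0 higher, where it called 0.0219% of all tested features. That gene was Pdha1, the E1 alpha subunit of pyruvate dehydrogenase, with 10841, 10375 and 10397 normalised counts in knockout 492, 499 and 501, against 13266, 13218 and 13189 in control 490, 498 and 502. Pdha1 fell by 0.33 on the log2 scale (SE 0.042, limma adjusted p = 0.0126). Without knockout 499, knockout 501, control 498 or control 502 limma called 0 of the 15. The groups did not overlap for 5 of the 15, against 9.51% of all tested features. In the authors' deposited table, where 33 of 7550 features with an adjusted p were called (0.437%), 3 of the 15 were called lower, against 0.384% of those features. These were Pdha1, and Suclg2 and Sucla2, which encode the GTP- and ADP-specific beta subunits of succinyl-CoA synthetase. The same deposited table gave every one of the 9 members an adjusted p of 1.00, with log2 fold changes from -0.20 for Nnt to 0.030 for Mdh2.

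Set against Cs in the same library, Pdha1 was 0.756, 0.772 and 0.740 in knockout 492, 499 and 501, against 0.881, 0.938 and 0.916 in control 490, 498 and 502. Suclg2 over Cs was 0.0872, 0.0900 and 0.0862 in knockout 492, 499 and 501, against 0.109, 0.118 and 0.1001 in control 490, 498 and 502. Sucla2 over Cs was 0.237, 0.246 and 0.238 in knockout 492, 499 and 501, against 0.258, 0.285 and 0.269 in control 490, 498 and 502. The groups did not overlap in any of these 3 ratios, which were chosen after their values were seen and are given without a test. The groups of Pdha1, Suclg2 and Sucla2 did not overlap without Cs either, so the ratios are not a separate check. Nnt over Cs, also chosen afterwards, overlapped between the groups. That ratio was 0.0269, 0.0282 and 0.0219 in knockout 492, 499 and 501, against 0.0273, 0.0298 and 0.0278 in control 490, 498 and 502.

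**Figure D4:**
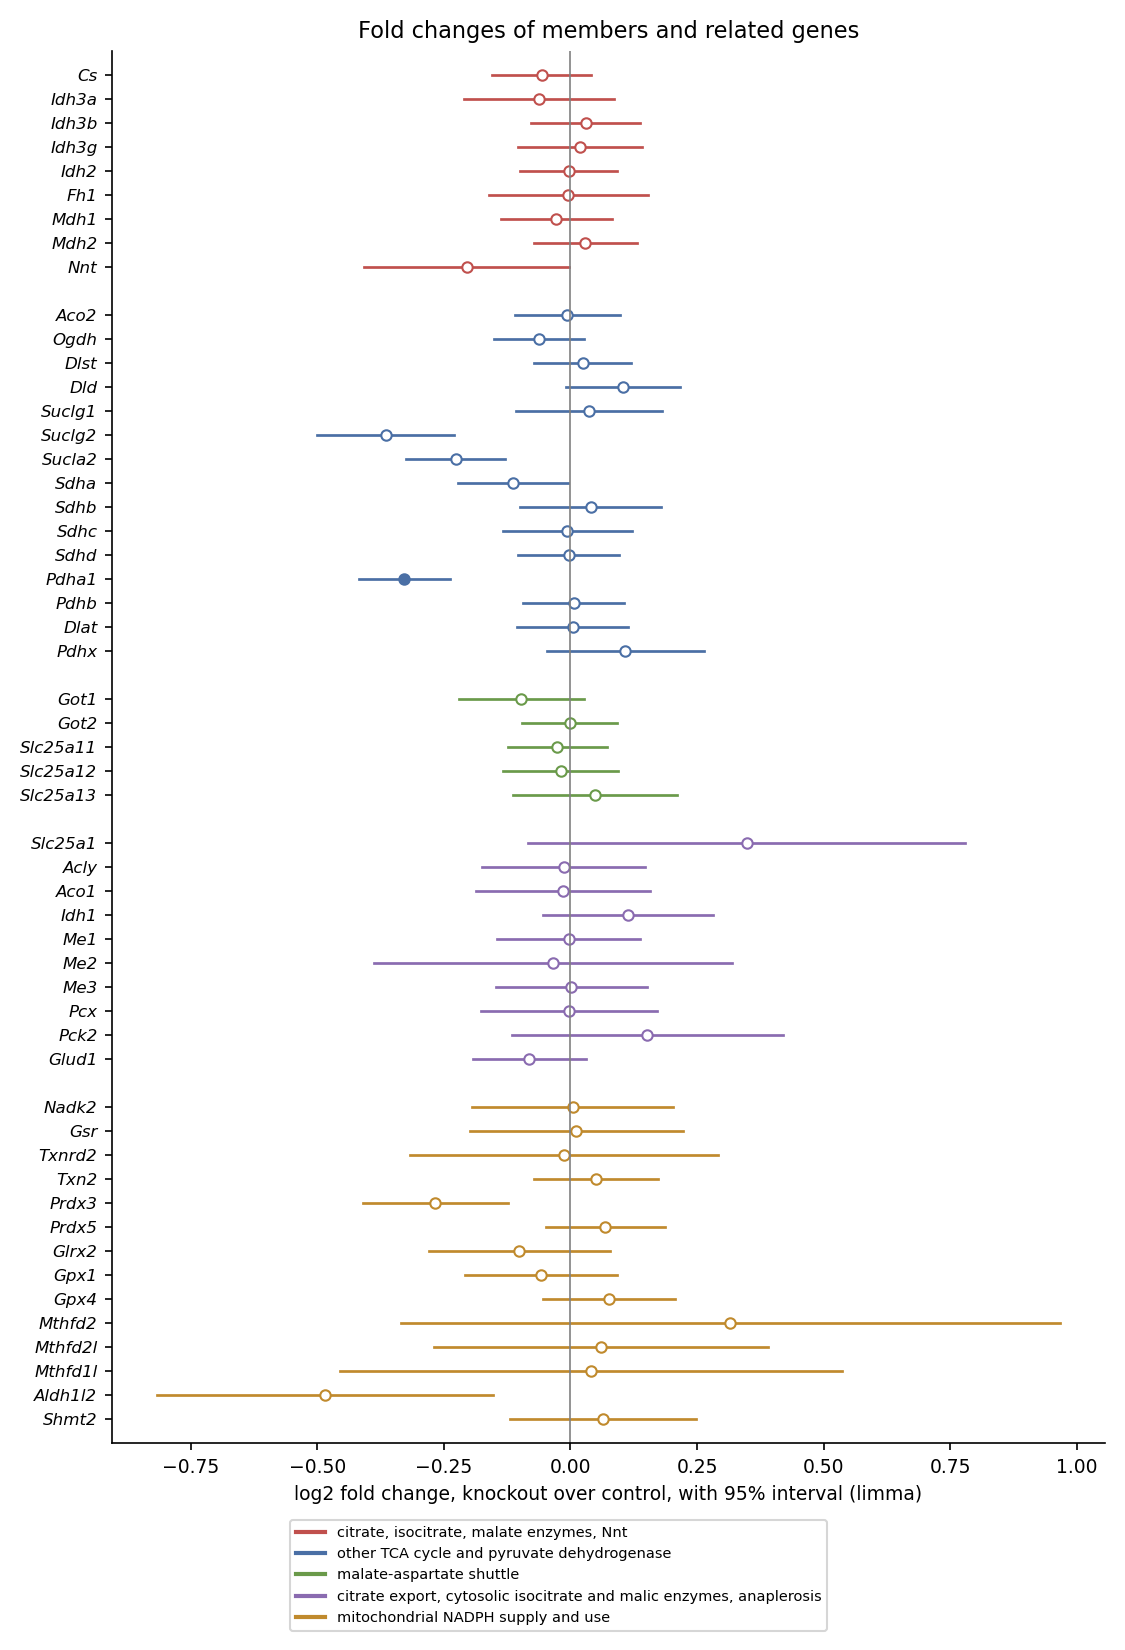
Log2 fold changes, knockout over control, with 95% intervals from limma (horizontal axis) for the 9 members (top) and 44 related genes in 4 lists, with filled points for an adjusted p under 0.05. The intervals of 8 members include 0 and that of Nnt ends at -0.0028, while Pdha1 is the 1 filled point.

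The partners of Mdh1 in the malate-aspartate shuttle had 0 called of 5, where limma called 0.0219% of all tested features. The median of these partners was -0.019. The 2 of smallest p were Got1, the cytosolic aspartate aminotransferase, with a log2 fold change of -0.098, and Slc25a13, an aspartate-glutamate carrier, with 0.048. Citrate export, the cytosolic isocitrate and malic enzymes and anaplerotic enzymes had 0 called of 10, against the same 0.0219%, with a median of -0.0036. Slc25a1, the citrate carrier, had a log2 fold change of 0.35 (95% interval -0.083 to 0.78), at levels of 68.7 to 75.6 counts in knockout-labelled and 47.9 to 77.3 in control libraries. Glud1, glutamate dehydrogenase, had 1485, 1466 and 1430 counts in knockout 492, 499 and 501, against 1557, 1549 and 1528 in control 490, 498 and 502, a log2 fold change of -0.081 that limma did not call.

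The genes that supply or use mitochondrial NADPH, the product of Nnt and Idh2, had 0 called of 14, where limma called 0.0219% of all tested features. Of the 14, 9 lay above 0, with a median of 0.026, where 49.8% of all tested features lay below 0. The groups did not overlap for 3 of the 14 (Prdx3, Glrx2 and Aldh1l2), against 9.51% of all tested features. Prdx3, the mitochondrial peroxiredoxin, held 1654, 1535 and 1423 normalised counts in knockout 492, 499 and 501, against 1836, 1974 and 1736 in control 490, 498 and 502. The groups did not overlap, and the log2 fold change of -0.27 (95% interval -0.41 to -0.12) had a limma adjusted p of 0.472. Aldh1l2, a mitochondrial folate enzyme that makes NADPH, held 105.2, 81.4 and 79.0 counts in knockout 492, 499 and 501, against 140.3, 120.3 and 110.9 in control 490, 498 and 502. Its groups did not overlap either, and its log2 fold change of -0.48 had a limma adjusted p of 1.00.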

How the data were processed

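Total RNA of hearts was sequenced after rRNA depletion with random-hexamer cDNA, per the labels' protocols. The authors deposited normalised counts (a signal of counts per feature divided by a size factor), and the submitters' processing notes name Bowtie2 2.3.4.1, featureCounts and DESeq2 1.22.2. A second deposited table, from the authors' own DESeq2 run, holds log2 fold changes, a score and p-values, quoted as given. Whether counting was strand-specific is not given in the sources that were used, and Gm51822 and Gm23182 overlap Cs in the RefSeq annotation. Symbols matched 54686 of 54715 Ensembl features. Whole reads were recovered for 100% of 156689 nonzero values (tolerance 0.01). Replicate pairs differed beyond counting noise (chi-square per degree of freedom 3.52 to 15.0).

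limma 3.58.1 in R 4.3.3 with a trended prior was run on log2(value + 1), 2-sided, for 18250 features averaging 10 or more, with genotype as the only term. That scale understates changes of low genes. Tests were checked on simulated counts. On the recovered reads, edgeR 4.0.16 called 5 of 18250 features and DESeq2 1.42.0 called 33 of 7550. The members, lists and tests were chosen with earlier results of these data known. Named were all members, and per list the called genes or the 2 of smallest p. Levels were not compared between genes because exon lengths were not used here. The mitochondrial RNA-end (PARE) libraries were not analysed here.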

Additional observations from a re-analysis of the deposited data

How the results depend on the processing

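The alternatives gave 163 log2 fold changes of members, of which 9 are the authors' own and 1 has Csl added to Cs. None was called, the smallest adjusted p was 0.556 (both Nnt and Cs, equal totals), and 149 kept their sign. Under equal totals Cs was at -0.13 (limma unadjusted p = 0.0125) and Nnt at -0.27. Equal totals shifted the median of all features by -0.069 and turned Idh3b to -0.040, Idh3g to -0.051 and Mdh2 to -0.041. Equal totals without mtDNA features put that median at 0.028 and turned Idh2 to 0.024 and Fh1 to 0.023. These sign changes came with a shift common to all features. Leaving out 1 library gave ranges of -0.078 to -0.031 (Cs), -0.15 to -0.00010 (Idh3a), -0.0052 to 0.059 (Idh3b), -0.017 to 0.062 (Idh3g), -0.040 to 0.022 (Idh2), -0.077 to 0.052 (Fh1), -0.077 to 0.0094 (Mdh1), 0.011 to 0.049 (Mdh2) and -0.26 to -0.10 (Nnt). Nnt stayed below 0 in all 18 alternatives, with unadjusted p from 0.0122 to 0.259. Most of these could not turn its sign. Its groups do not overlap, so leaving out 1 library or changing the pseudocount, filter or variance settings keeps it below 0. DESeq2 on the recovered reads and the authors' deposited table gave the same value of -0.20, so they are not separate checks. The ratio differences ranged from -0.18 to -0.019 (Idh3a over Idh3b), -0.15 to 0.0096 (Idh3a over Idh3g), -0.0039 to 0.15 (Idh2 over Idh3a) and -0.13 to -0.019 (Mdh1 over Mdh2). The count of called features, 4, was 12 with no filter, 37 under equal totals, 0 without a trend (where Nnt had an unadjusted p of 0.101), 12 with robust moderation, 33 by DESeq2 and in the authors' deposited table, and 1 to 8 without 1 library. Of the 15 other TCA cycle genes, 2, 3, 0, 2, 3 and 3 were called in those settings in that order, 0 by edgeR, and 0 to 1 without 1 library. The causes were not tested. Nnt had the fewest counts and the largest SE of the members, with knockout 501 far from the other libraries. Levels per length were not run, as exon lengths were not used here. No paired analysis was possible because the columns carry no replicate number of the labels.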
